A study of Mus musculus with 4 samples.

Results

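MOV10 peaks that lay 5 to 10 kb before the annotated 3′ end of their gene are described here. They were chosen by position alone. A peak was counted when its midpoint lay in exactly 1 RefSeq gene span of GRCm38.p6, when that span was at least 15 kb, and when the midpoint was more than 5000 and at most 10000 nt from the 3′ end, with the direction of the gene read from the strand of the peak. The rule gave 644 of the 12236 peaks of the list (5.26%), or 6.45% of the 9978 peaks in single genes of at least 15 kb. They lay in 149 genes, 10.5% of the 1421 genes of that span with any peak, and all 644 were in protein-coding genes. The demand for exactly 1 gene span also held for the other zones of a gene described here. Peaks in stretches that gene spans share were left out, so a zone called without peaks may hold some there.

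The peaks came from eCLIP of MOV10 in N2A cells, a mouse neuroblastoma line grown in culture. The series comprised 2 MOV10 immunoprecipitates (IP), made with an anti-MOV10 antibody, and 2 inputs, all from N2A cells. The labels do not state whether separate cultures were used. A single peak list combined the libraries, so each peak carried 1 value of IP over input and no spread between replicates could be given.

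MOV10 is an RNA helicase that unwinds RNA and associates with Argonaute proteins in microRNA silencing. In eCLIP, ultraviolet light crosslinks a protein to the RNA it touches, and the fragments recovered with the protein are compared with a size-matched input. The 3′ untranslated region, which follows the coding sequence, holds most microRNA target sites, and many neuronal transcripts use late polyadenylation sites that make this region long. A peak several kilobases before the annotated end can lie in a long 3′ untranslated region, in an earlier exon or in an intron. Exons were not used here, so these cases cannot be told apart, and the annotated end is the outermost one of all transcript models of a gene. Predicted models were among them in 116 of the 149 genes.

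Each peak had 2 values of the authors'. One was taken as log2 fold enrichment of IP over input, where each unit is a doubling. The other was taken as the −log10 p of the peak, which grows with both enrichment and read number and stops at 400. The list started just above 3 in both, so weaker binding is not represented. Peaks of 1 gene share a transcript, and many touch each other. Shares and medians over peaks are therefore descriptions, and no test was run on them.

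No genome sequence was used here, so the RNA under the peaks is not printed. Of the annotated mouse microRNA hairpins, 1 lay within 500 nt of a peak of the window, that of miR-7670 inside Ubn2, which encodes a ubinuclein of the HIRA histone chaperone complex. The hairpin (chr6:38507325-38507393, plus strand, GRCm38.p6) lay downstream of the Ubn2 peak at chr6:38507067-38507167, with 157 nt between them. That peak had a log2 fold enrichment of 4.29. This gene was chosen after its values were seen, and nothing was measured about the microRNA. Its 2 mature arms from RefSeq are shown, 5′ to 3′, with the seed (bases 2 to 8) in capitals, since they are the microRNA sequences that lie nearest to a peak of the window.
mmu-miR-7670-5p: aUUCAGAUgggcagauugggaa
mmu-miR-7670-3p: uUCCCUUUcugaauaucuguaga

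Peaks thinned out with distance from the gene end. In bins of 500 nt, the highest number, 1785 peaks in 779 genes, stood at 500 to 1000 nt. At 4500 to 5000 nt there were 191 peaks in 88 genes. The first bin of the window, 5000 to 5500 nt, held 140 peaks in 64 genes, and the last, 9500 to 10000 nt, held 27 peaks in 15 genes. The next bin outward held 16 peaks in 7 genes. Within the window, 456 peaks (70.8%) lay at 5 to 7.5 kb and 188 (29.2%) at 7.5 to 10 kb, and the median distance was 6402.5 nt (interquartile range 5570 to 7771).

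**Figure D1:**
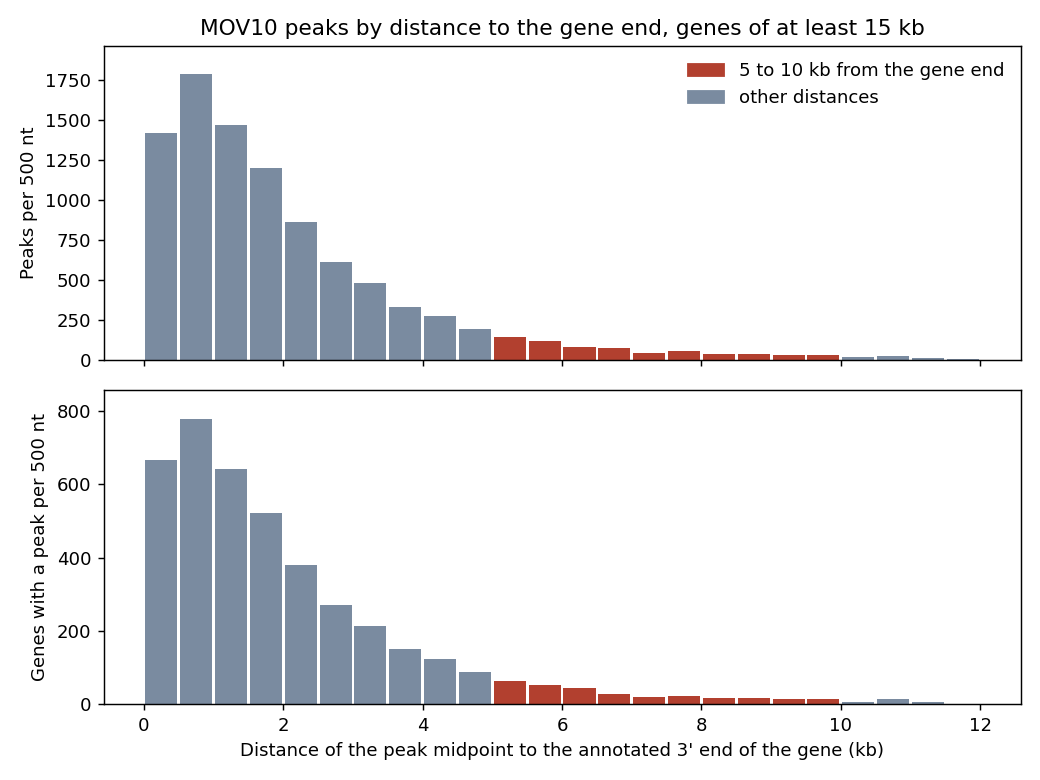
Number of MOV10 peaks (top) and of genes with a peak (bottom) in each 500 nt of distance between the peak midpoint and the annotated 3′ end, for genes of at least 15 kb. Red bars mark 5 to 10 kb and grey bars the other distances. The first red bar holds 140 peaks in 64 genes and the last 27 peaks in 15 genes.

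The 644 peaks lay at a median distance of 72166.5 nt from the 5′ end of their gene and at least 9022 nt away, where the minimum span and the far edge of the window already set a distance of about 5 kb or more. Of the 149 genes, 121 were listed with a strand in the table of RefSeq promoters, and in all 121 the annotated strand was that of the peaks. In 0 of the 121 did a listed transcription start lie nearer to the 3′ end than the farthest peak of the window. The closest such start was 16014 nt from the 3′ end. The genes with peaks in the window were of all sizes, from 16.2 kb to 759 kb in span. Among genes with any peak, the share with one in the window was 8.53% at 15 to 30 kb of span, 9.29% at 30 to 60 kb, 10.6% at 60 to 120 kb and 14.4% above 120 kb.

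The edges of the window ran through series of peaks in several genes. Just inside 5 kb lay peaks of the ubiquitin protease gene Usp31 (5001 nt, log2 fold enrichment 4.56), the kinase gene Braf (5004 nt, 3.40), Aff4, of the transcription elongation machinery (5007 nt, 3.60), and Xkr7 (5008.5 nt, 3.32). Just outside lay peaks of Bend4 (4996.5 nt, 3.36), the RNA-binding protein gene Rbms3 (4994 nt, 4.60) and the nuclear import gene Tnpo3 (4992.5 nt, 3.83). At the far edge, the last peaks inside belonged to Cadm1 (9971.5 nt, 3.13), Tnrc6b (9960 nt, 3.11), Strbp (9929 nt, 3.40) and Tmem201 (9885.5 nt, 3.84). The first ones outside belonged to Smpd3 (10109 nt, 3.19), Septin11 (10167 nt, 3.58), Nf2 (10172.5 nt, 3.28) and Hmbox1 (10181.5 nt, 3.82).

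A small number of genes held many of the peaks. Of the 149 genes, 60 had 1 peak in the window and 29 had 2, and the median was 2. At the other end, 15 genes with 10 or more held 314 of the 644 peaks (48.8%), and the 12 genes with most held 284 (44.1%). Peaks of a gene lay close together. Of 495 pairs of neighbouring peaks in a gene, 216 (43.6%) touched or overlapped, a further 130 were 1 to 100 nt apart, and 42 were more than 500 nt apart. All 644 peaks together covered 47690 nt, in 428 intervals once touching peaks were joined.

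Cbx5, which encodes the heterochromatin protein HP1α, held 42 peaks of the window, more than any other gene. They lay 5017.5 to 7800.5 nt from the 3′ end of the gene (chromosome 15, 103191546 to 103239904, minus strand) in 18 intervals that covered 1057 nt. Their log2 fold enrichment ran from 4.04 to 6.48, with a median of 5.12, and the median of the whole list was 3.71. The strongest, at 103198220 to 103198226, was 7 nt long and had an 89.0-fold enrichment. The 4 peaks of the window at the highest listed −log10 p of 400 were all in Cbx5. The peaks in the last 5 kb of Cbx5, 67 in number, had a median of 5.35 and reached 6.32.

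Tmem164, a gene of a transmembrane protein on chromosome X (142680347 to 142843494, plus strand), held 40 peaks at 5274.5 to 8986 nt from the 3′ end and none nearer to it. Their log2 fold enrichment had a median of 4.87 and a range of 3.42 to 5.87. The strongest lay at 142836433 to 142836508, 7023.5 nt from the end, with a −log10 p of 40.1. Another 5 peaks lay 10893.5 to 37467 nt away and reached 3.98. The peaks of Tmem164 thus formed a block that lay mostly inside the window.

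Genes of septins, GTP-binding proteins that assemble into filaments, held the next places. Septin11 (chromosome 5, 93090995 to 93182368, plus strand) had 33 peaks at 7537 to 9747 nt, with a median of 3.96 and a highest value of 4.99 at 93174062 to 93174076. It had 6 more peaks just past the window, at 10167 to 10864 nt, with values up to 4.12. Septin8 (chromosome 11, 53519397 to 53549605, plus strand) had 29 peaks at 5574 to 8384 nt, with a median of 4.10 and a highest value of 4.87. All peaks assigned to Septin8 were in the window, and neither gene had a peak assigned to its last 5 kb. The end of Septin11 overlapped the span of Ccni (93181933 to 93206495), and peaks in that overlap were not counted.

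Hmbox1, a homeobox gene on chromosome 14 (64811600 to 64949899, minus strand), had 26 peaks spread over the window from 5080.5 to 9740 nt. Their median was 4.61 and the strongest, at 64817513 to 64817665, reached 5.70. Hmbox1 continued on both sides, with 22 peaks in the last 5 kb and 12 beyond 10 kb. Tead1, the transcription factor at the end of the Hippo pathway, had 19 peaks at 5062.5 to 7933 nt with a median of 4.60. Its strongest, at chr7:112901393-112901456, had a log2 fold enrichment of 6.58, the highest of the whole window and a 95.4-fold enrichment. The 47 peaks in the last 5 kb of Tead1 reached 6.62, so the highest values of both zones differed by little.

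Hipk2, a nuclear protein kinase gene on chromosome 6 (38687512 to 38876331, minus strand), had the highest median of the 12 genes with most peaks, 5.20, over 18 peaks at 7218 to 9834 nt. Of these 18, 12 had a log2 fold enrichment of at least 5, which 5.93% of all peaks of the list reached. The strongest reached 6.06 at 9354 nt and had a −log10 p of 54.3. None lay in the last 5 kb, and 5 lay beyond 10 kb with values up to 3.92.

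Weaker but dense peaks were found in the kinase gene Taok1 and in Tnrc6b, which encodes a GW182 protein that links Argonaute to deadenylation. Taok1 (chromosome 11, 77529162 to 77625359, minus strand) had 23 peaks at 5313.5 to 7854.5 nt with a median of 3.47 and a highest value of 4.45. Tnrc6b (chromosome 15, 80711313 to 80941086, plus strand) had 17 at 5747.5 to 9960 nt, also with a median of 3.47, and reached 4.20. Both genes had about as many peaks in the last 5 kb, 22 in Taok1 and 19 in Tnrc6b. Their medians there were 3.57 and 3.70.

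Tmod2, which caps actin filaments in neurons, had 15 peaks at 5258.5 to 8130 nt, up to 5.27. Usp31 had 11 at 5001 to 6061 nt, up to 5.09. Among the 12 genes with most peaks, 8 had peaks in the last 5 kb as well.

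**Figure D2:**
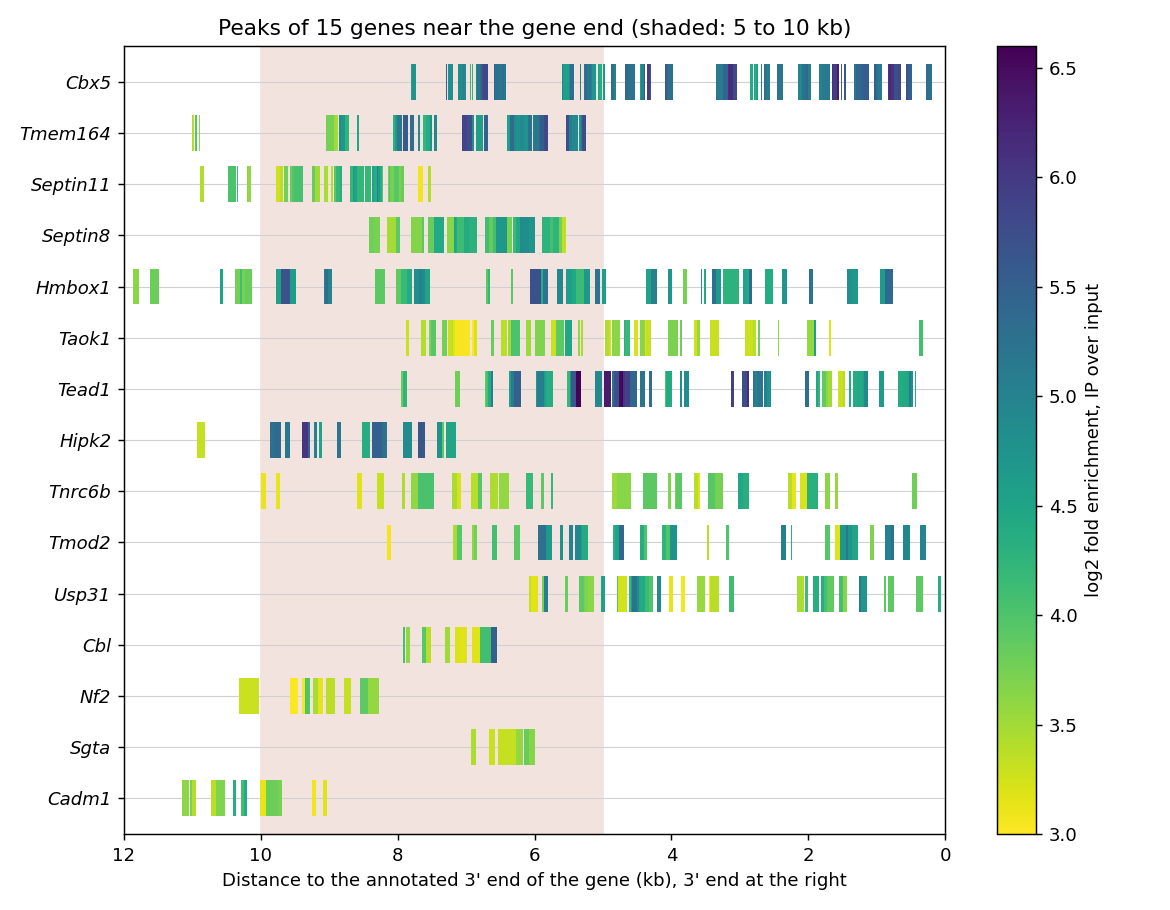
Positions of peaks before the annotated 3′ end (right edge) in 15 genes, 11 of the 12 with most peaks at 5 to 10 kb (from Cbx5 at the top) and the 4 next ones without a peak in the last 5 kb (from Cbl down). The shaded zone is 5 to 10 kb, each block is 1 peak drawn to scale with a minimum width of 12 nt, and the colour is its log2 fold enrichment. In Cbx5, Hmbox1 and Tead1 blocks lie on both sides of the 5 kb line, while Tmem164, Septin11, Septin8 and Hipk2 have none to the right of it. Of 581 peaks of these genes, 14 lay beyond 12 kb and are not drawn.

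The genes fell into those with peaks nearer the end as well and those without. In 101 of the 149 genes (67.8%) the last 5 kb also held peaks, and these genes had 433 of the 644 peaks. The other 48 genes had 211 peaks (32.8%). In 40 genes every peak assigned to the gene lay in the window, 24 of them with a single peak. Peaks were also found beyond 10 kb in 36 genes, and in all 3 zones in 28.

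Where both zones held peaks, the window often continued a series of peaks. In 54 of the 101 genes the midpoint of the nearest peak of the last 5 kb was at most 1000 nt away, and in 15 at most 200 nt. Over the whole list, 30 joined intervals ran across the 5 kb line, the longest of 502 nt. In the other 47 genes the gap was over 1000 nt. It was 7685 nt in Gnao1, which encodes the αo subunit of trimeric G proteins, with 4 peaks at 8878 to 9867 nt and 4 within 1193 nt of the end. The largest, 8646 nt, was in the amino acid transporter gene Slc6a15, named after its values were seen. Genes with peaks in both zones held a median of 13 peaks in the last 5 kb, against 3 in the 1203 genes that had peaks there and none in the window.

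Genes without a peak in the last 5 kb had their window peaks farther from the end. The median distance was 7790 nt for the 211 peaks of these genes and 5894 nt for the 433 of the others, and 43.1% against 84.3% lay at 5 to 7.5 kb. Beside Tmem164, Septin11, Septin8 and Hipk2, the genes with most such peaks were Cbl, Nf2, Sgta and Cadm1. Cbl, a ubiquitin ligase of receptor kinases (chromosome 9, 44142976 to 44234259, minus strand), had 10 peaks at 6590.5 to 7913.5 nt, all the peaks assigned to it. The one nearest the end was its strongest, 5.51, against a median of 3.55. Nf2, which encodes the tumour suppressor merlin of the Hippo pathway (chromosome 11, 4757639 to 4849544, minus strand), had 10 at 8351.5 to 9514 nt, up to 4.01. Sgta, a cochaperone gene in a span of 16.2 kb on chromosome 10, had 7 at 6031.5 to 6923 nt, up to 3.84. Cadm1, a cell adhesion gene, had 6 at 9062 to 9971.5 nt, up to 3.81, and 8 more beyond 10 kb, up to 4.40.

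Most of the remaining genes of this kind held few peaks. Of the 48, 27 had 1 peak in the window. Among these single peaks were those of Ago3, an Argonaute gene (3.05), and Tnrc6c, a GW182 gene (3.04), close to the lowest value of the list. Tnrc6c and Pcbp2 are named outside the rule for named genes. The single peak of Pcbp2, a poly(C)-binding protein gene, had a low enrichment of 3.01 with a −log10 p of 17.0. Vmn2r38, chosen after its values were seen, belongs to a family of vomeronasal receptor genes whose members are alike, and its 2 peaks, up to 4.40, may hold reads of other copies.

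In strength, the centre of the peaks of the window lay close to that of the other peaks, while more of them stood at high values. Their log2 fold enrichment had a median of 3.78 (3.36 to 4.39 between quartiles), or 13.8-fold, against 3.73 (3.36 to 4.21) in the last 5 kb of genes of the same minimum span, 3.63 (3.29 to 4.25) beyond 10 kb and 3.71 over the whole list. A value of at least 4 was reached by 242 of 644 peaks (37.6%), where 33.7% of all peaks of the list did so. A value of at least 5 was reached by 72 (11.2%), against 5.93% of all peaks, and a −log10 p of at least 20 by 160 (24.8%), against 19.9% of all peaks. By zone, a value of at least 5 was reached by 5.87% of peaks in the last 5 kb and by 8.26% beyond 10 kb. In the same order, 34.8% and 33.6% reached at least 4, and 20.4% and 14.0% a −log10 p of at least 20.

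These upper values came from few genes. The 72 peaks at or above 5 belonged to 11 genes, with 24 in Cbx5, 16 in Tmem164, 12 in Hipk2, 7 in Hmbox1, 6 in Tead1 and 2 in the neuronal splicing regulator gene Nova2. Tmod2, Usp31, Cbl, Faxc and Mib1 had 1 each. Without Cbx5, the shares were 33.2% at 4 or more, 7.97% at 5 or more and 19.6% at a −log10 p of 20 or more. For these shares Cbx5 was left out of the window only. The shares of all peaks given above still include its 110 peaks, so the 2 sets are not alike. The difference in median to the last 5 kb was 0.054 over single peaks, and 0.0034 without Cbx5. It turned to −0.24 when each gene entered with its strongest peak of each zone and to −0.013 when touching peaks were joined, so its sign depended on how peaks were counted.

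**Figure D3:**
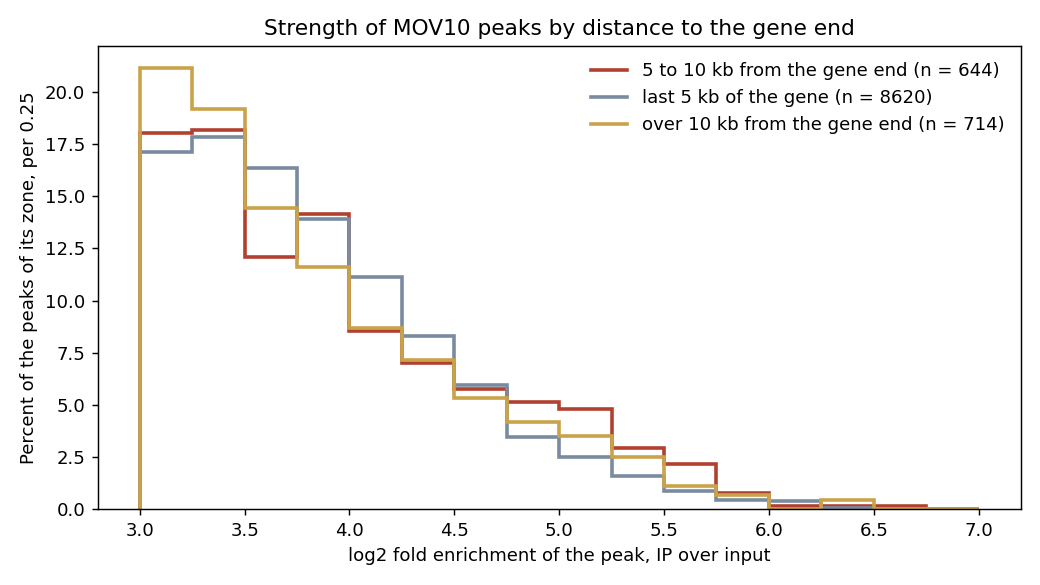
Percent of peaks in each step of 0.25 of log2 fold enrichment, for peaks at 5 to 10 kb (red), in the last 5 kb (grey) and over 10 kb from the gene end (yellow), each as a share of its own zone. Each outline is highest below 3.5, and the red one lies above the others from 4.75 to 5.75. Of the 72 peaks at or above 5 in the red one, 52 are from Cbx5, Tmem164 and Hipk2.

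The median along the window was 3.79 at 5 to 6 kb (259 peaks), 3.82 at 6 to 7 kb (153), 3.83 at 7 to 8 kb (100), 3.78 at 8 to 9 kb (73) and 3.47 at 9 to 10 kb (59 peaks in 24 genes). In steps of 500 nt, the low value was that of 32 peaks in 15 genes at 9000 to 9500 nt (3.46), and the median was 3.76 at 9500 to 10000 nt, close to that of the whole window. Peaks were a little shorter than in the last 5 kb, with a median length of 65.5 nt (interquartile range 38.75 to 100) against 74 nt (44 to 109). Length differed between genes. The 42 peaks of Cbx5 had a median of 20 nt and the 29 of Septin8 one of 77 nt. The strands were even, with 323 peaks on plus and 321 on minus.

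Inside single genes the peaks of the window were mostly weaker than those nearer the end. Of the 101 genes with peaks in both zones, the median of the window was lower in 77 (76.2%) and higher in 24. The median difference over the 101 genes was −0.27 on the log2 scale (interquartile range −0.53 to −0.06). Among the 47 genes with at least 3 peaks in each zone it was lower in 40, also with a median difference of −0.27. The strongest peak of the gene lay in the last 5 kb in 87 of the 101 genes, in the window in 11 and beyond 10 kb in 3. The last 5 kb held the larger number of peaks in 89 of the 101 genes, and the part of this in the result was not tested.

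Among the genes with the widest negative difference was Ttyh3, a tweety-family membrane protein gene, whose 10 window peaks had a median of 3.25 against 5.02 for 72 peaks in the last 5 kb, a difference of −1.78. Ago2, the Argonaute protein of microRNA silencing, had 1 peak in the window at 3.26, against a median of 4.79 for 42 in the last 5 kb. Arf3, a small GTPase gene of the Golgi, had 1 at 3.40 against a median of 4.58 for 26. Nova2 had 6 at a median of 4.15, up to 5.27, against 5.10 for 39.

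The opposite order was found in 24 of the 101 genes, against 77 with the lower median in the window. It rested on few peaks in the kinase genes Map3k2 (2 peaks, 0.38 higher) and Gsk3b (2 peaks, 0.28 higher). Genes with more peaks were also among the 24. Zyg11b, named outside the rule, had 6 peaks in the window against 7 in the last 5 kb, with a median 0.44 higher. The largest positive difference, 0.92, was in the ubiquitin ligase gene Rnf165, from 1 peak at 4.64. The 11 genes whose strongest peak lay in the window despite peaks nearer the end included Cbx5, Hmbox1 and Faxc. Faxc, a gene named for its fly counterpart in axon development, had 8 peaks in the window up to 5.17 and 3 nearer the end up to 4.69. Outside the rule for named genes, the 11 also included Ino80d, of the INO80 chromatin remodeller, with 9 peaks up to 4.42 against 8 nearer the end up to 4.40.

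**Figure D4:**
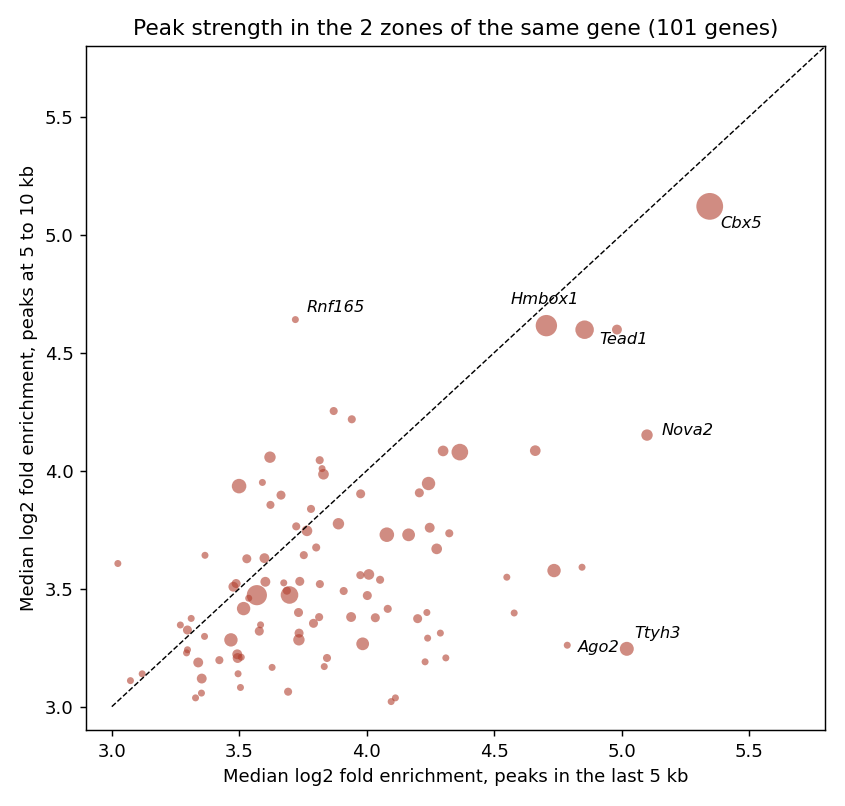
Median log2 fold enrichment of the peaks at 5 to 10 kb (vertical) against that of the peaks in the last 5 kb (horizontal) in the 101 genes with both. Each point is a gene and its area grows with the number of peaks at 5 to 10 kb. The dashed line marks equal medians, with 77 genes below it, Ttyh3 and Ago2 farthest down, and 24 above it, Rnf165 highest.

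By function, peaks of the window were found in each of 12 gene lists, most often in few members. Of all coding genes that span 15 kb or more, 12.1% held a peak and 1.26% held one in the window, and of those with any peak 10.5% held one in the window. The lists were written with earlier results of these data known, some of them around genes with many peaks, so shares above these values are no evidence about a list.

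In the machinery of microRNA silencing, 7 of 20 genes of that span held a peak and 4 held one in the window, Tnrc6b, Ago2, Ago3 and Tnrc6c. Their 20 peaks had a median of 3.44, below the 3.78 of the whole window, and 17 of them were in Tnrc6b. Among genes of deadenylation and mRNA decay, 8 of 29 held a peak and 3 held one in the window. Dcp2, the decapping enzyme, had 3 peaks up to 3.73, and the CCR4-NOT deadenylases Cnot6l and Cnot6 had 3 each, up to 3.57 and 3.43. All 3 genes had more peaks in the last 5 kb, 13 in Dcp2, 18 in Cnot6l and 22 in Cnot6. Of translation and poly(A)-binding genes, 10 of 23 held a peak and 2 held one in the window. Eif4ebp2, which restrains the cap-binding factor eIF4E, had 5 up to 4.41, the nearest at 5034 nt, only 44.5 nt from a peak of the last 5 kb. Pabpc4, a cytoplasmic poly(A)-binding protein gene, had 1 at 3.21. Among splicing and nuclear RNA-binding protein genes, 9 of 33 held a peak and Nova2 alone held any in the window.

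Chromatin regulators gave 55 peaks in 5 genes, with 18 of 43 holding any peak. Apart from Cbx5 these included the DNA methyltransferase gene Dnmt3a, with 5 peaks up to 4.62, and the methylcytosine dioxygenase genes Tet3 and Tet1. The 55 peaks had a median of 4.87, and 42 of them were in Cbx5. Among transcription factors of growth and Hippo signalling, 11 of 25 held a peak and 3 held one in the window, Tead1, Hmbox1 and Creb1, the last with 2 peaks up to 3.51.

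Of protein kinases, 21 of 42 held a peak and 5 held one in the window. Hipk2 led, followed by Gsk3b (4.39) and Map3k2 (4.31), then Braf with 9 peaks up to 3.59 and Ttbk2. Of the ubiquitin system, 15 of 32 held a peak and 5 held one in the window, Cbl, Usp31, Mib1, Rnf165 and Trim67. Mib1, a ligase of Notch signalling, had 4 peaks up to 5.05 beside 51 in the last 5 kb.

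Neuronal adhesion and guidance genes held window peaks in 3 of 37, with 11 holding any peak. They were Cadm1, the netrin receptor gene Unc5c (1 peak, 3.46) and the semaphorin receptor gene Plxna4 (1 peak, 3.40). Among cytoskeletal and transport genes, 18 of 31 held a peak, and 3 held one in the window, the spectrin gene Sptbn1 (2 peaks up to 3.54), the kinesin gene Kif1b (1 peak, 3.31) and the doublecortin-like kinase gene Dclk1 (1 peak, 3.08). Kif1b had 34 peaks in the last 5 kb, with a median of 4.29. Ion channel and transporter genes held window peaks in 4 of 31, with 10 holding any peak. The calcium channel gene Cacna1c had the 2 peaks assigned to it in the window, up to 3.82. The chloride transporter gene Clcn5 had 1 at 4.01, and Ttyh3 was also among the 4. Of G protein and small GTPase genes, 15 of 34 held a peak and Gnao1 (up to 4.03) and Arf3 held one in the window. The medians over the window peaks of these lists were 3.43 for adhesion and guidance (8 peaks), 3.40 for cytoskeleton and transport (4 peaks), 3.25 for channels and transporters (14 peaks) and 3.40 for G proteins and small GTPases (5 peaks).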

How the data were processed

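eCLIP was performed by a contract laboratory on frozen N2A cell pellets, per the labels' protocols. Per the submitters' processing notes, the builds were mm10 and GRCm38.p6. For the aligner, peak caller and thresholds, nothing is given in the sources used here. The deposited list is labelled IDR, which commonly stands for irreproducible discovery rate, a filter on agreement between replicates. Its settings and the way the replicates were combined are not given. The deposited list gave per peak a −log10 p and a log2 fold enrichment of the authors', read as such from their ranges and from the column order of published eCLIP files, since the list has no header. If a column was misread, statements on strength change and those on position do not. Depth per library and reads per peak are unknown.

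Start positions were converted to count from 1. Peaks were assigned by midpoint to RefSeq spans and distances computed with Python 3.11.15, pandas 2.3.3 and numpy 2.4.6, and the assignment was tested on simulated peaks. The gene spans hold no exons. The members, the gene lists and the rule for named genes were chosen with earlier results of these data known. Named genes were the 12 with most peaks of the window, the 10 with the strongest among peaks at or above the median −log10 p of the window, the 8 with most peaks and none in the last 5 kb, the 4 peaks on each side of both edges, and the 3 strongest of each of 12 lists. Alternatives were another distance anchor, span, window and peak filter, joined peaks, the strongest peak per gene, and leaving out Cbx5. Some genes that the rule names are not reported here.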

Additional observations from a re-analysis of the deposited data

How the results depend on the processing

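No paired analysis was possible because the list holds 1 value per peak over all libraries, and for the same reason no library could be left out. In all, 7 results were recomputed under 8 settings, and 37 of 55 values stayed close to those reported. Close meant within 1.5 times for counts and within the exact 95% binomial interval for shares and medians. That interval treats peaks as independent, or genes where a share is over genes. With touching peaks joined, 424 intervals lay in the window, 33.0% had a log2 fold enrichment of at least 4, and the difference in median to the last 5 kb was −0.013. With the strongest peak of each gene alone, there were 149 peaks, 77.9% at 5 to 7.5 kb and 30.9% at 4 or more, the difference was −0.24, and the window had the lower value in 88.1% of genes with both zones. Peaks with a −log10 p of at least 5 reached 4 in 42.8%, and 75.2% of their genes also had peaks in the last 5 kb. Kept at a log2 value of 4 or more, the peaks numbered 242 in 46 genes, and the difference was 0.20. A window of 6 to 10 kb held 385 peaks in 96 genes, 51.2% of them below 7.5 kb, and 58.3% of these genes had peaks in the last 5 kb. Without Cbx5, 33.2% reached 4 and the difference was 0.0034. Under every setting listed, the window had the lower median in most genes with both zones, or the lower strongest peak where only that peak was kept. The last 5 kb held more peaks than the window in 89 of the 101 genes. The part of this in the comparison of strongest peaks was not tested. The cause of both changes of sign was not tested. Changing the anchor of the distance to the peak edge or the minimum span to 20 kb moved none of the 7 results past these limits. The number of reads behind a peak was not known, so no counting error can be given for any single peak, and weak peaks cannot be weighed by depth.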
